A study of Homo sapiens with 36 samples.

Results

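Interferon-stimulated genes are the genes that cells switch on when interferons reach their surface receptors. Receptor-bound JAK kinases phosphorylate STAT proteins, which join IRF9 and bind the interferon-stimulated response element (ISRE) in the promoters of these genes, whereas STAT dimers bind the gamma-activated site (GAS). The products block viral entry, degrade viral RNA, sense foreign nucleic acid or amplify the signal, and many of them are also expressed at a basal level in epithelial cells without infection. A fixed list of 46 symbols for such genes was followed through the series, and since DDX58 and RIGI name the same gene, the list held 45 genes of the 60725 Ensembl genes in the deposited tables. All 45 had a row.

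RNA-seq was performed in 36 libraries that formed 18 groups of 2. MCF-10A-ER-Src cells are non-transformed human mammary epithelial cells carrying ER-Src, a fusion of v-Src with the tamoxifen-binding domain of the estrogen receptor. They received a control siRNA (Ctrli) or siRNA pools against YAP (YAPi), TAZ (TAZi), STAT3 (STAT3i) or JUNB (JUNBi), and each of these 5 was cultured with the ethanol vehicle (ETH, non-transformed) or with tamoxifen (TAM), for which the labels' treatment note lists tamoxifen together with AZD0530, a Src family kinase inhibitor. MDA-MB-231 cells, a triple-negative breast cancer line, formed 2 sets without tamoxifen. Set 1 held Ctrli, YAPi, TAZi, the combined YAPi_TAZi and TEADi, and set 2 held its own Ctrli, JUNBi and STAT3i. Every group, controls included, had been transfected with siRNA, each line was a single cell line, and the length of the tamoxifen treatment is not given in the sources used here for these libraries. Nothing in the labels says that the 2 libraries of a group came from separate cultures, so p-values measure the spread between these libraries, which may be technical.

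KRT5 and VIM followed the labelled cell types in most libraries, whereas ZEB1 did not in set 2. KRT5, a basal keratin, lay between 1012 and 2622 TPM (transcript abundance per length, scaled to the same total in each library) in the 20 ER-Src libraries and was listed at 0 in the 2 controls of set 1 and in all 6 libraries of set 2, whereas VIM, a mesenchymal filament, lay between 817 and 2591 TPM in these 8 libraries and between 184 and 338 TPM in ER-Src cells. KRT5 was at 5.99, 6.37, 11.5 and 8.07 TPM in the replicate 1 libraries of the set 1 knockdowns and at 0 in their replicate 2 libraries. VIM lay between 369 and 983 TPM in these knockdowns. ZEB1, a mesenchymal transcription factor, lay at 14.85 and 15.26 TPM in the set 1 controls and between 6.57 and 23.38 TPM in the set 1 knockdowns. In set 2 it lay between 0.82 and 1.44 TPM, below the 2.37 to 5.74 TPM of ER-Src cells. Of the leukocyte markers, PTPRC did not exceed 0.08 TPM and CD3E 0.01 TPM in ER-Src cells, ITGAM reached 0.35 TPM, and CD14 and CD68, which many cell types express, reached 9.6 and 18.1 TPM. The targeted mRNA fell in every ER-Src knockdown with TAM, by 2.49 on the log2 scale for YAP1, 2.22 for WWTR1, which encodes TAZ, 2.66 for STAT3 and 2.03 for JUNB. JUNB itself also fell by 2.41 with STAT3i and TAM, and with ETH the fall of JUNB under JUNBi did not pass the test (-1.16, adjusted p = 0.064, DESeq2). Total expected counts ranged from 6416159 to 19153233 in ER-Src cells and from 7290495 to 18076140 in set 2. In set 1, the controls held 13456764 and 13534549 counts but the 8 knockdowns only 1411300 to 2784553. A short fixed list of noncoding RNAs that lack a poly(A) tail, such as RN7SK and RMRP, made up 8.71% to 11.8% of counts in these knockdowns. In their controls the same RNAs made up 0.00407% and 0.00278%. Library type and knockdown therefore cannot be told apart between knockdowns and controls of set 1. The median over genes of length minus RSEM effective length, which follows read or fragment length, was 48 in replicate 1 of these knockdowns and 74.6 in replicate 2. It was 75 in the controls. In ER-Src cells it was 49 in every STAT3i and JUNBi library and 49.47 to 49.49 in every Ctrli, YAPi and TAZi library. This difference cannot be told apart from STAT3i or JUNBi either, and its cause was not tested. Levels are given in TPM and tests in DESeq2-normalized counts, and the 2 scales were shifted: the median log2 TPM ratio over genes averaging 10 or more normalized counts was -0.31 for TAM in Ctrli and 0.38 for STAT3i in TAM, where the median fitted log2 fold change was -0.02 and 0.03, and it was between -1.44 and -1.32 in set 1. Changes are those of the fitted scale, and small differences in TPM can have the other sign.

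The level of the 45 genes in ER-Src cells was carried by few of them. The summed TPM of IFITM1, IFITM2 and IFITM3, small membrane proteins that block fusion of enveloped viruses with the cell, was 232 and 228 in Ctrli ETH and 678 and 632 in Ctrli TAM. These 3 genes made up 54.4% and 56.8% of the summed level of all 45 genes with ETH and 75.3% and 73.45% with TAM. Between 34 and 39 of the 45 genes were at 1 TPM or more in each ER-Src library. MX1, an antiviral GTPase, stayed between 0.16 and 0.71 TPM, MX2 did not exceed 0.29 TPM, and XAF1, a pro-apoptotic factor, was listed at 0 in 13 of the 20 libraries. In bulk RNA, fewer cells expressing a gene and less RNA per cell cannot be told apart. IFITM1, IFITM2 and IFITM3 are related in sequence, and RSEM divides the reads they share by estimation. The split among them is therefore uncertain, to an extent that was not measured for each gene, and their sum is the firmer value. PARP9 and DTX3L, and CMPK2 and RSAD2, lie next to each other on opposite strands, and whether counting used strand is not stated in the sources used here.

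In MDA-MB-231 cells the 45 genes summed to 1404 to 1685 TPM in the 6 libraries of set 2 and to 1698 and 1665 TPM in the controls of set 1. ISG15, the ubiquitin-like protein that is conjugated to newly made proteins, was at 299 and 282 TPM in the set 1 controls and at 324 and 426 TPM in the set 2 controls, against 3.59 and 4.24 TPM in ER-Src Ctrli ETH. BST2, which tethers budding virions to the membrane, was at 163 and 175 TPM in the set 1 controls and at 358 and 340 TPM in the set 2 controls. The controls of the 2 sets themselves differed: IFIT1, which binds viral RNA lacking cap methylation, was at 66.4 and 61.5 TPM in set 1 and at 2.41 and 3.32 TPM in set 2. The listed RNAs that lack a poly(A) tail made up 9.43% to 11.7% of counts in the ER-Src libraries. This share was near that of the set 1 knockdowns of MDA-MB-231, and in these knockdowns ISG15 was at 30.2 to 60.9 TPM. Values between tables of different library type are levels only and were not tested.

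Promoter sequences illustrate what the 2 binding elements look like at the genes whose levels moved most. Windows of 250 bases before to 50 bases after the transcription start (RefSeq, GRCh38.p14) were found for 36 of the 45 genes. The ISRE was searched as GAAA, any 2 bases, GAAA on both strands, and the GAS as TTC, any 3 bases, GAA, which reads the same on both strands, and the 2 may overlap. An ISRE match was held by 26 of the 36 genes (72.2%) and by 1195 of all 27305 genes with a window (4.38%). A GAS match was held by 12 of the 36 (33.3%) and by 2560 of all (9.38%). A match is a description of the letters and not evidence of binding. The stretches below run 5′ to 3′ on the strand of the gene, with ISRE matches in capitals, and were chosen because IFITM1, IFITM3 and PLSCR1 fell and IFIT1, IFI6 and IFI27 rose under STAT3i with TAM.
IFITM1 (chr11:313980-314063, plus strand): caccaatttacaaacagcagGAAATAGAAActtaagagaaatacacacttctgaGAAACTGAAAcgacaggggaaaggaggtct
IFITM3 (chr11:320866-320932, minus strand): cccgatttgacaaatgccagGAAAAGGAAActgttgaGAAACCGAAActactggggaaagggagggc
PLSCR1 (chr3:146544657-146544706, minus strand): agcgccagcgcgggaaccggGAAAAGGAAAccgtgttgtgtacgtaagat
IFIT1 (chr10:89392487-89392549, plus strand): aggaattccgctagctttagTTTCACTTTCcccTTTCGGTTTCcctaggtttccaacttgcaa
IFI6 (chr1:27672256-27672368, minus strand): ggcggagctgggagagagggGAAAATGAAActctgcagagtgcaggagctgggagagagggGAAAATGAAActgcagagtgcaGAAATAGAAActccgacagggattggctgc
IFI27 (chr14:94110608-94110670, plus strand): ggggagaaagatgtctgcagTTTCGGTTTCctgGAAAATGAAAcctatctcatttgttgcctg

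Genes of both directions thus held ISRE matches close to their starts. Of the 9 genes that rose with TAM, 7 had a window, 5 of these held an ISRE and 4 a GAS. IRF1 and IRF9, 2 transcription factors of the pathway that rose with TAM, held a GAS match and no ISRE match, and their stretches are shown with the GAS in capitals.
IRF1 (chr5:132490869-132490917, minus strand): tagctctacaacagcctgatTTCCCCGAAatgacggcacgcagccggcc
IRF9 (chr14:24161182-24161230, plus strand): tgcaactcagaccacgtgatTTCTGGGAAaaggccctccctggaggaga
UBE2L6, the conjugating enzyme for ISG15, held neither match in its window. With STAT3i and TAM, 6 of the 9 genes with a window that rose and all 3 that fell held an ISRE.

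With tamoxifen, control cells were compared with their ethanol-treated counterparts. Tamoxifen raised 9 of the 45 genes and lowered none (DESeq2 Wald test, Benjamini-Hochberg adjusted p under 0.01 over all genes tested). Over all 15934 genes tested, 4.56% were higher and 1.56% were lower. Of the 45 genes, 41 had an adjusted p. The median log2 fold change was 0.58 over the 39 genes averaging 10 or more normalized counts, beside -0.02 over all genes with that mean. The genes that rose were the 3 IFITM genes, PLSCR1, IRF9, GBP2, IFI44L, IRF1 and DTX3L.

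IFITM1 had the highest log2 fold change of the genes that rose, followed by PLSCR1 and IFITM3, and the plot of levels in each ER-Src library shows all 3. IFITM1 was at 12.5 and 11.2 TPM with ETH and at 43.2 and 54.1 TPM with TAM, a log2 fold change of 2.21 ± 0.18 (SE, n = 2 per group, adjusted p = 1.7e-31, DESeq2). IFITM3 was at 134 TPM in both ETH libraries and at 413 and 367 TPM with TAM (log2 fold change 1.72 ± 0.11, adjusted p = 2.9e-57, DESeq2). The TAM libraries lay above the ETH libraries for both genes. IFITM2 rose by 1.49 on the log2 scale, from 85.2 and 82.4 to 222 and 211 TPM. PLSCR1, a membrane-associated scramblase that restricts several viruses, was at 18.5 and 12.99 TPM with ETH and at 47.9 and 51.6 TPM with TAM (log2 fold change 1.79 ± 0.16, adjusted p = 7.6e-26, DESeq2). Without any 1 of the 4 libraries, 4 genes stayed called, and these were IFITM1, IFITM2, IFITM3 and PLSCR1 each time.

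**Figure D1:**
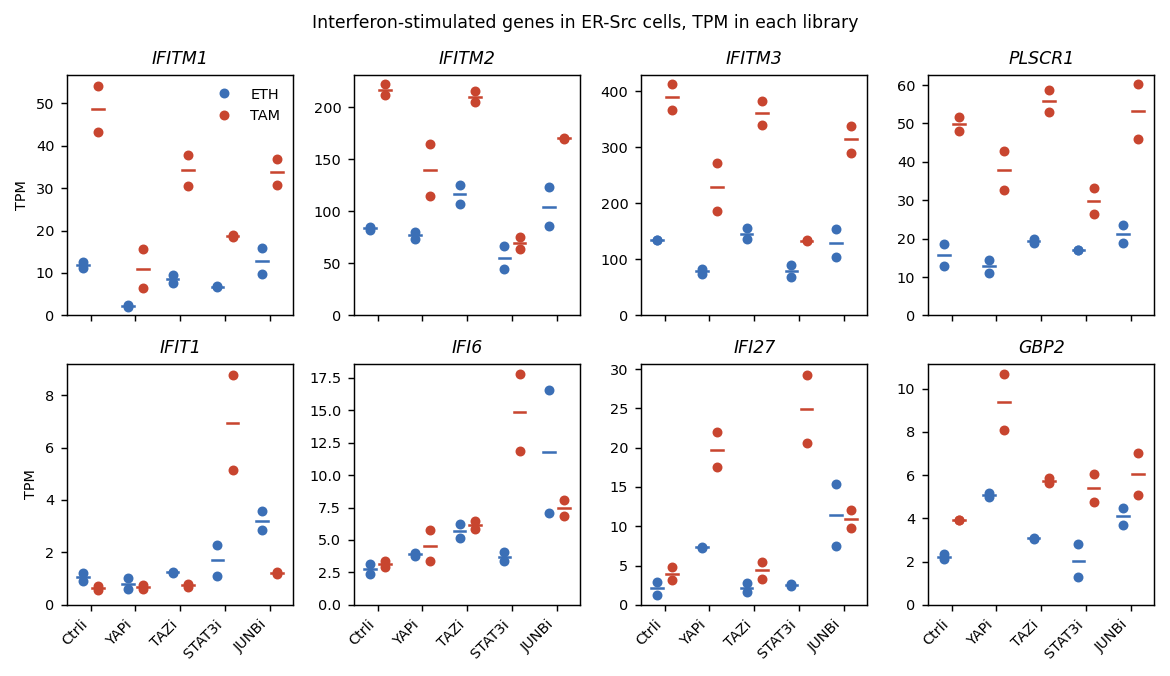
Level in TPM (linear axis from 0) of 8 interferon-stimulated genes in the 20 ER-Src libraries, by siRNA and by ETH (blue) or TAM (red), where points are single libraries and lines are means of 2. IFITM3 rose from 134 TPM in both Ctrli ETH libraries to 413 and 367 TPM with TAM. It was at a mean of 79.1 TPM in STAT3i ETH and at 132 and 135 TPM in STAT3i TAM, whereas IFIT1 was highest in the 2 STAT3i TAM libraries.

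Among the transcription factors, IRF9, the DNA-binding subunit that joins STAT proteins, was at 3.44 and 1.92 TPM with ETH and at 6.20 and 5.57 TPM with TAM (log2 fold change 1.35 ± 0.32, adjusted p = 0.00075, DESeq2). IRF1, which is induced by interferon gamma and activates many of these genes, rose by 0.83 on the log2 scale (adjusted p = 0.0058, DESeq2). IRF7, which amplifies type I interferon production, had a log2 fold change of 1.37 ± 0.43 and did not pass the test (adjusted p = 0.021, DESeq2). All 3 factors were higher in both TAM libraries than in both ETH libraries. GBP2, an interferon-induced GTPase, rose by 0.99, IFI44L by 0.97 and DTX3L, a ubiquitin ligase that partners PARP9, by 0.80 on the log2 scale.

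The genes that serve most often as markers of an interferon response did not pass the test with TAM. ISG15 was at 3.59 and 4.24 TPM with ETH and at 4.29 and 5.21 TPM with TAM (log2 fold change 0.46 ± 0.43). The log2 fold change was 0.41 ± 0.47 for IFI6, a mitochondrial survival protein, -0.46 ± 0.54 for IFIT1, 0.83 ± 0.94 for MX1 and -0.22 ± 0.42 for OAS1, a sensor that makes 2′-5′ oligoadenylate. BST2 was at 65.3 and 64.0 TPM with ETH and at 50.5 and 58.7 TPM with TAM (0.18 ± 0.14 on the normalized count scale). BST2 is one of the genes whose TPM and fitted values differ in sign. None of the 4 IFIT, 4 OAS, 4 RNA sensor and 5 ISG15 system genes was called. Since only 4.56% of all 15934 genes tested were higher and 1.56% lower, so short a list could hold few calls. The lack of calls is therefore not read as a trait of these genes. With low-count genes left out, their median log2 fold changes were 0.03 (IFIT), 0.32 (OAS), 0.35 (RNA sensors) and 0.31 (ISG15 system). Of the leukocyte markers, CD68 rose by 1.75 on the log2 scale in the same comparison and CD14 was not called (0.56), while PTPRC and CD3E were at 0 in all 4 libraries and ITGAM at 0.01 TPM or less.

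Depletion of STAT3 in tamoxifen-treated cells moved the 45 genes in 2 directions. The comparison carries the difference in effective length given above. Compared with Ctrli TAM, 10 genes rose and 4 fell, while over all 14470 genes tested 3.29% were higher and 4.8% were lower. The 4 genes that fell were IFITM1, IFITM2, IFITM3 and PLSCR1. The Ctrli TAM libraries are shared with the tamoxifen comparison, where the log2 fold changes of the same 4 genes were 2.21, 1.49, 1.72 and 1.79. Those that rose were IFIT1, IFI27, IFI6, IFIT2, OAS1, SAMD9, IRF9, IFIT3, HERC6 and GBP1. The median log2 fold change was 0.59 over the 42 genes averaging 10 or more normalized counts, beside 0.03 over all such genes. The heat map of fold changes shows the blue block of IFITM genes next to the red block of IFIT genes in this column.

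**Figure D2:**
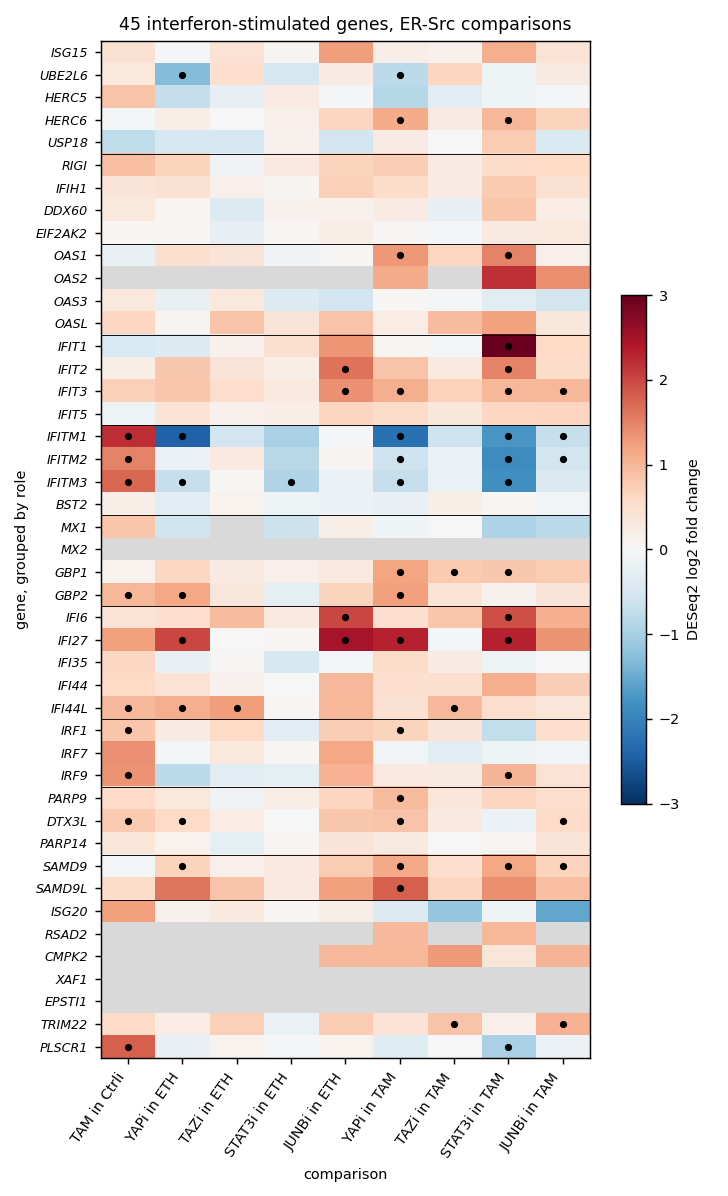
DESeq2 log2 fold change (colour, limited to -3 to 3) of the 45 genes, grouped by role, in the 9 ER-Src comparisons, where black dots mark an adjusted p under 0.01 and grey marks a mean normalized count under 10. Under STAT3i with TAM the 3 IFITM genes are blue, with log2 fold changes of -1.75, -1.88 and -1.83, and IFIT1, IFI27 and IFI6 are red, with 2.96, 2.32 and 1.94.

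IFITM3 was at 132 and 135 TPM in STAT3i TAM, IFITM2 at 63.8 and 75.7 TPM and IFITM1 at 18.9 and 18.5 TPM. The log2 fold changes against Ctrli TAM were -1.83 ± 0.11, -1.88 ± 0.13 and -1.75 ± 0.18 (adjusted p = 2.8e-57, 8.5e-43 and 7.6e-20, DESeq2, n = 2 per group). All STAT3i TAM libraries lay below both Ctrli TAM libraries for these genes. IFITM3 was then close to its level in Ctrli ETH but above its mean of 79.1 TPM in STAT3i ETH, the matching group without tamoxifen. The summed IFITM level was 215 and 230 TPM, compared with 678 and 632 TPM in Ctrli TAM. PLSCR1 was at 33.2 and 26.5 TPM and fell by 0.97 on the log2 scale (adjusted p = 6.6e-08, DESeq2).

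IFIT1 was at 8.78 and 5.13 TPM in STAT3i TAM and at 0.72 and 0.57 TPM in Ctrli TAM, a log2 fold change of 2.96 ± 0.37 (adjusted p = 1.1e-13, DESeq2). Both STAT3i TAM libraries lay above every other ER-Src library, of which the highest was 3.57 TPM in JUNBi ETH. IFIT2 rose by 1.495 and IFIT3 by 0.99 on the log2 scale. IFIT5 was at 5.42 and 4.93 TPM, against 2.76 and 2.68 TPM, and was not called (0.62 ± 0.20, adjusted p = 0.023, DESeq2). IFI27, a mitochondrial protein that interferon induces strongly, was at 29.3 and 20.6 TPM in STAT3i TAM and at 3.15 and 4.75 TPM in Ctrli TAM (2.32 ± 0.32, adjusted p = 6.1e-11, DESeq2). IFI6 was at 17.8 and 11.9 TPM, against 2.88 and 3.40 TPM (1.94 ± 0.33). OAS1 rose by 1.49 and IRF9 by 1.02 on the log2 scale, and IRF9 was at 19.2 and 14.6 TPM, its highest level in ER-Src cells.

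Of the remaining genes of the fixed panel, ISG15 was at 14.4 and 10.7 TPM in STAT3i TAM, above the 4.29 and 5.21 TPM of Ctrli TAM, and did not pass the threshold (log2 fold change 1.09 ± 0.33, adjusted p = 0.013, DESeq2). IRF1 lay below its control level, at 6.07 and 5.88 TPM against 8.42 and 9.10 TPM (-0.74 ± 0.23, adjusted p = 0.014, DESeq2), opposite in sign to IRF9. BST2 (0.05 ± 0.15), IRF7 (-0.16 ± 0.35) and MX1 (-0.92 ± 0.91) were not called. Leaving out 1 of the 4 libraries left 6 to 9 genes called, the fewest without STAT3i TAM replicate 1, and 6 genes were called each time: IFITM1, IFITM2, IFITM3, PLSCR1, IFIT1 and IFI27. CD14 and CD68 fell by 1.23 and 1.26 on the log2 scale in this comparison, while in its 4 libraries PTPRC was at 0, CD3E at 0.01 TPM or less and ITGAM at 0.14 TPM or less.

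Without tamoxifen, STAT3i lowered IFITM3 and raised none of the 45 genes, while over all 18444 genes tested 0.038% were higher and 0.163% were lower. The 2 STAT3i ETH libraries stood apart from each other. The SD over genes of their log2 ratio was 0.68, against 0.43 in Ctrli ETH and 0.475 in STAT3i TAM. A small count of calls with ETH therefore does not show an absence of effects. IFITM3 was at 67.7 and 90.5 TPM in STAT3i ETH against 134 TPM in both Ctrli ETH libraries (log2 fold change -0.91 ± 0.18, adjusted p = 0.00061, DESeq2). IFITM1 lay at 6.62 and 6.98 TPM against 12.5 and 11.2 TPM and was not called (-0.96 ± 0.29, adjusted p = 0.23, DESeq2), and neither was IFITM2 (-0.83 ± 0.21, adjusted p = 0.032, DESeq2). The call of IFITM3 was lost with edgeR, which called 0 of the 45 genes and gave 5 an unadjusted p under 0.05, with effective length offsets and without either Ctrli ETH library. The other panel genes had log2 fold changes from -0.64 for MX1 to 0.49 for IFIT1, and none passed the test.

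The difference between the STAT3i effects with and without tamoxifen was itself tested as an interaction. It passed for 3 genes. IFIT1 had an interaction of 2.45 ± 0.59 on the log2 scale (adjusted p = 0.0031, DESeq2), that is, STAT3i raised it more with TAM, and IFITM2 (-1.07 ± 0.25, adjusted p = 0.0014) and IFITM3 (-0.94 ± 0.20, adjusted p = 0.00021) had interactions of the opposite sign. Over all 15885 genes tested, 0.447% had a higher and 0.951% a lower interaction. IFI27 (2.22 ± 0.60, adjusted p = 0.015) and PLSCR1 (-0.94 ± 0.27, adjusted p = 0.025) did not pass in DESeq2. By edgeR, 0 of the 45 genes passed and 18 had an unadjusted p under 0.05. The number that passed fell to 0 without Ctrli TAM replicate 1 and to 1 without Ctrli ETH replicate 1, Ctrli ETH replicate 2, Ctrli TAM replicate 2 or STAT3i TAM replicate 1.

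**Figure D3:**
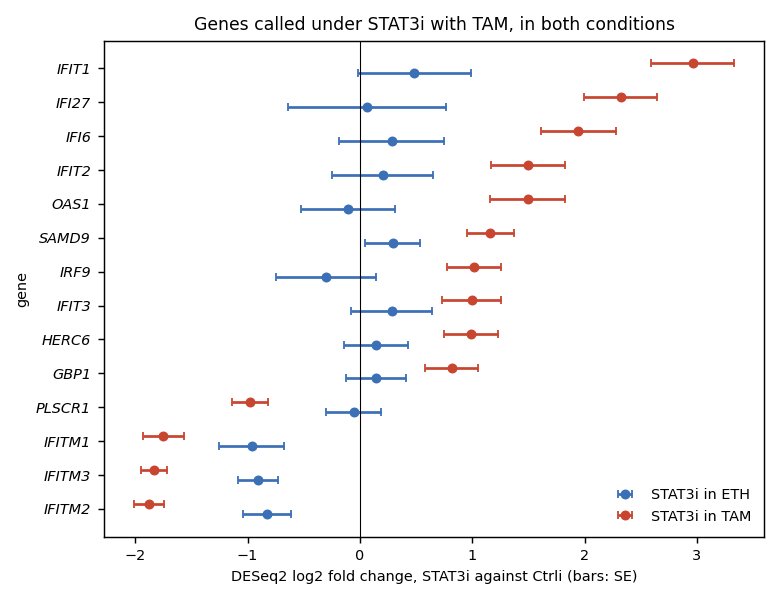
DESeq2 log2 fold change of STAT3i against Ctrli (x axis, bars are SE) for the 14 interferon-stimulated genes called with TAM, without (ETH, blue) and with tamoxifen (TAM, red). The genes were chosen for their TAM value, so a smaller ETH value, as for IFIT1 with 0.49 against 2.96, says nothing by itself, and the difference passed its own test for IFIT1, IFITM2 and IFITM3 in DESeq2 and for 0 genes in edgeR.

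Depletion of YAP in tamoxifen-treated cells raised 11 of the 45 genes and lowered 4, while over all 14182 genes tested 5.4% were higher and 5.54% were lower. The genes that fell were the 3 IFITM genes and UBE2L6. Those that rose were IFI27, SAMD9L, OAS1, GBP2, GBP1, SAMD9, HERC6, IFIT3, PARP9, DTX3L and IRF1. The Ctrli TAM libraries are the same as for STAT3i. The median log2 fold change was 0.48 over the 42 genes averaging 10 or more normalized counts, beside 0.01 over all such genes. Leaving out 1 library left 4 to 8 genes called, the fewest without YAPi TAM replicate 2, and GBP2, IFI27 and SAMD9 were called each time.

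IFITM1 was at 15.6 and 6.42 TPM in YAPi TAM against 43.2 and 54.1 TPM in Ctrli TAM (log2 fold change -2.23 ± 0.51, adjusted p = 0.00027, DESeq2). Both YAPi libraries lay below both controls, and they differed from each other by more than the 2 control libraries did as a ratio. IFITM3 fell by 0.70 and IFITM2 by 0.62 on the log2 scale, and neither was called by edgeR. UBE2L6 fell by 0.80, from 10.1 and 8.87 TPM to 5.91 and 4.37 TPM (adjusted p = 0.0094, DESeq2), a call that was lost with effective length offsets, with size factors by TMM and without any 1 of the 4 libraries.

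IFI27 was at 22.0 and 17.5 TPM in YAPi TAM, against 3.15 and 4.75 TPM in Ctrli TAM (log2 fold change 2.30 ± 0.32, adjusted p = 2.8e-11, DESeq2). GBP2 was at 10.7 and 8.10 TPM, against 3.9 and 3.91 TPM (1.23 ± 0.20, adjusted p = 8.2e-08, DESeq2), and YAPi TAM was the ER-Src group in which GBP2 was highest. SAMD9L and SAMD9, which restrict poxviruses and cell growth, rose by 1.79 and 1.14 on the log2 scale, and SAMD9L stayed at 0.68 and 0.71 TPM. OAS1 rose by 1.30 and IRF1 by 0.68. IFIT1 was at 0.75 and 0.61 TPM, and its log2 fold change of 0.05 ± 0.55 did not pass the test. ISG15 (0.19 ± 0.38), IFI6 (0.51 ± 0.42), MX1 (-0.13 ± 0.82), BST2 (-0.21 ± 0.15), IRF7 (-0.08 ± 0.34) and IRF9 (0.29 ± 0.25) were not called.

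Without tamoxifen, YAPi raised 5 genes and lowered 3, while over all 15005 genes tested 5.03% were higher and 6.36% were lower. IFITM1 was at 2.48 and 1.89 TPM in YAPi ETH against 12.5 and 11.2 TPM in Ctrli ETH (log2 fold change -2.43 ± 0.30, adjusted p = 8.4e-14, DESeq2), and was the only gene called in every fit that left out a library. UBE2L6 was at 3.43 and 2.67 TPM against 10.1 and 9.31 TPM (-1.31 ± 0.26, adjusted p = 1.9e-05, DESeq2), and IFITM3 fell by 0.70. IFI27 rose by 2.00, GBP2 by 1.16, IFI44L by 1.09, SAMD9 by 0.68 and DTX3L by 0.57 on the log2 scale. IFI27 lay at 7.28 and 7.39 TPM against 1.26 and 2.94 TPM. Leaving out 1 library left 2 to 4 genes called, the fewest without Ctrli ETH replicate 1. The panel genes ISG15, IFI6, IFIT1, MX1, OAS1, BST2, IRF1, IRF7 and IRF9 had log2 fold changes from -0.79 for IRF9 to 0.51 for IFI6 and did not pass. None of the 45 genes passed the test of the difference between the YAPi effects with and without TAM (0 in DESeq2 with 7 at an unadjusted p under 0.05, and 0 in edgeR with 12), while over all 15721 genes tested 0.178% had a higher and 0.318% a lower interaction.

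Depletion of TAZ moved few of the genes. With tamoxifen, TAZi raised IFI44L (log2 fold change 0.98 ± 0.18, adjusted p = 4.4e-06, DESeq2), TRIM22, an antiviral tripartite-motif protein (0.85 ± 0.19, adjusted p = 0.00033), and GBP1 (0.78 ± 0.22, adjusted p = 0.0092), and lowered none, while over all 13442 genes tested 1.79% were higher and 1.74% were lower. IFI44L was at 9.51 and 11.1 TPM in TAZi TAM against 4.75 and 5.35 TPM in Ctrli TAM. IFITM3 was at 383 and 340 TPM against 413 and 367 TPM and was not called (-0.19 ± 0.11), and IFITM1 came nearest among the genes that were lower (-0.63 ± 0.18, adjusted p = 0.013, DESeq2). Only 1 gene was called without Ctrli TAM replicate 2 and 0 without any 1 of the other 3 libraries. The panel genes ranged from -0.34 for IRF7 to 0.83 for IFI6, and none was called.

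Without tamoxifen, TAZi raised only IFI44L (1.26 ± 0.25, adjusted p = 2.4e-05, DESeq2) and lowered none, while over all 13253 genes tested 2.75% were higher and 2.78% were lower. IFI44L was at 6.55 and 4.94 TPM against 2.93 and 3.26 TPM. Its call was lost without Ctrli ETH replicate 1 or TAZi ETH replicate 1 and with effective length offsets, where its log2 fold change was 0.89. The panel genes ranged from -0.38 for MX1 to 0.94 for IFI6, with IFITM3 at 0.03. No gene passed the TAZi interaction (0 in DESeq2, with 1 at an unadjusted p under 0.05 and only 9 of the 45 genes given an adjusted p, and 0 in edgeR with 6), while over all 4328 genes tested 0.347% had a higher and 1.29% a lower interaction.

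Depletion of JUNB with tamoxifen raised TRIM22, IFIT3, SAMD9 and DTX3L and lowered IFITM1 and IFITM2, while over all 13375 genes tested 2.77% were higher and 3.95% were lower. TRIM22 was at 19.9 and 15.7 TPM in JUNBi TAM against 7.35 and 8.33 TPM in Ctrli TAM (log2 fold change 1.05 ± 0.19, adjusted p = 1.5e-06, DESeq2). IFIT3 rose by 0.99, SAMD9 by 0.68 and DTX3L by 0.58, and IFITM1 fell by 0.70 and IFITM2 by 0.55 on the log2 scale. The calls of IFITM1 and IFITM2 were lost with edgeR and with effective length offsets, and 0 genes stayed called without JUNBi TAM replicate 1 or Ctrli TAM replicate 1 and 1 without Ctrli TAM replicate 2. Of the panel, IFI6 (1.07 ± 0.39, adjusted p = 0.048), IFITM3 (-0.43 ± 0.15, adjusted p = 0.029) and IRF1 (0.54 ± 0.20, adjusted p = 0.058) lay above the DESeq2 threshold, and ISG15 (0.42), IFIT1 (0.61), MX1 (-0.80), OAS1 (0.15), BST2 (-0.09), IRF7 (-0.08) and IRF9 (0.44) were not called.

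Without tamoxifen, JUNBi raised IFI27 (2.46 ± 0.57, adjusted p = 0.00099, DESeq2), IFI6 (2.00 ± 0.49, adjusted p = 0.0025), IFIT2 (1.64 ± 0.39, adjusted p = 0.0013) and IFIT3 (1.37 ± 0.34, adjusted p = 0.0033) and lowered none, while over all 15234 genes tested 1.17% were higher and 1.59% were lower. The 2 JUNBi ETH libraries stood apart from each other. ISG15 was at 4.03 TPM in one and 16.1 TPM in the other, IFI6 at 7.08 and 16.6 TPM and IFI27 at 7.43 and 15.4 TPM, whereas IFIT1 was at 3.57 and 2.84 TPM against 1.20 and 0.90 TPM in Ctrli ETH. JUNB itself was at 3.9 and 8.55 TPM in these libraries. By edgeR, 0 of the 45 genes were called and 18 had an unadjusted p under 0.05. The count was 7 without JUNBi ETH replicate 2, 0 without Ctrli ETH replicate 1 and 1 without Ctrli ETH replicate 2. The other panel genes ranged from -0.18 for BST2 to 1.32 for IFIT1. No gene passed the JUNBi interaction (0 in DESeq2 with 2 at an unadjusted p under 0.05, and 0 in edgeR with 5), while over all 16037 genes tested 0.0686% had a higher and 0.218% a lower interaction.

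The genes upstream in the pathway were followed as a second fixed list of 32 ligands, receptors, kinases, factors, sensors and inhibitors. Interferon transcripts were near absent in ER-Src cells: IFNA2, IFNL1, IFNL2 and IFNG were listed at 0 in all 20 libraries, IFNB1 did not exceed 0.04 TPM, and IFNK, the keratinocyte interferon, reached 0.23 TPM. With TAM, 6 of the 32 rose and none fell in Ctrli, where 22 of the 32 had an adjusted p. Over all 15934 genes tested, 4.56% were higher and 1.56% were lower. SOCS3, a feedback inhibitor of JAK signalling and a known STAT3 target, was at 0.92 and 1.00 TPM with ETH and at 43.1 and 40.2 TPM with TAM (log2 fold change 5.77 ± 0.17). STING1, the adaptor for cytosolic DNA, rose by 2.41, its sensor CGAS by 0.85, the receptor subunits IFNGR1 and IFNGR2 by 0.77 and 0.75 and STAT2 by 0.67 on the log2 scale.

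STAT3i with TAM lowered 5 of the 32 pathway genes and raised none, and 22 of the 32 had an adjusted p. Over all 14470 genes tested, 3.29% were higher and 4.8% were lower. SOCS3 was at 4.43 and 3.26 TPM and fell by 3.74 on the log2 scale, and STING1 was at 9.48 and 11.7 TPM and fell by 2.49, while IFNGR2 fell by 0.89, CGAS by 0.73 and MAVS, the adaptor of the RNA sensors, by 0.68. The interaction with TAM passed for STING1 (-1.93), SOCS3 (-2.73) and CGAS (-1.11). With YAPi and TAM, the genes that rose included IFNGR1, JAK1, IKBKE, TLR3 and MAVS, by 0.46 for JAK1 to 0.86 for TLR3, and STING1 fell by 1.28 and SOCS3 by 0.51. With ETH, YAPi raised IFNGR1, JAK1 and MAVS. IFNGR1 rose with TAZi and with JUNBi in both conditions, by 0.76 to 1.16 on the log2 scale. TAZi also raised IKBKE with TAM and MAVS with ETH, and JUNBi with TAM lowered IRF3 and STING1. For YAPi, TAZi and JUNBi the shares over all genes are those given above, and 22 or 23 of the 32 had an adjusted p. STAT3i with ETH called none of the 32 in DESeq2, where 23 had an adjusted p. Over all genes tested, 0.038% were higher and 0.163% lower. JUNBi and STAT3i in MDA-MB-231 set 2 also called none, but only 13 and 8 of the 32 had an adjusted p. In set 1, where library type differs between knockdowns and controls, 5 to 10 of the 32 were higher and 1 to 4 lower. Over all genes tested there, 12.2% to 17.3% were higher and 11.9% to 18.2% were lower.

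In MDA-MB-231 set 1, each knockdown differed from Ctrli for 18 to 23 of the 45 genes, in both directions. YAPi raised 5 and lowered 13, while over all 16777 genes tested 12.2% were higher and 11.9% were lower. TAZi raised 9 and lowered 14, against 15.7% and 16.6% of 17963 genes. YAPi_TAZi raised 11 and lowered 12, against 17.3% and 18.2% of 19129 genes, and TEADi raised 5 and lowered 13, against 13.7% and 14.4% of 16694 genes. These counts carry the difference in library type given above, and the 4 comparisons share both control libraries, so their values are given side by side only.

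SAMD9L had log2 fold changes of 2.11 with YAPi, 1.74 with TAZi, 2.36 with YAPi_TAZi and 2.01 with TEADi. SAMD9 rose by 1.38 to 1.97 and GBP1 by 0.72 to 1.21. IFI27 had log2 fold changes of 1.35 to 2.00, but with the controls of both sets these turned to -0.61 with YAPi, -0.16 with YAPi_TAZi and -0.24 with TEADi. MX1 rose with TAZi (1.416) and YAPi_TAZi (1.94), and XAF1 with TAZi (1.49). In the other direction, IFITM1 had -2.55, -2.45, -3.73 and -2.29 in the same order, IFITM3 lay between -1.27 and -1.12, ISG15 between -1.30 and -1.08 and IFIT1 between -2.00 and -1.13. ISG20, an exonuclease that degrades viral RNA, had -3.32 with YAPi, -2.15 with TAZi and -2.04 with TEADi. OASL, a relative of the OAS enzymes that enhances RIG-I signalling, had -2.86 with YAPi, -1.61 with TAZi and -1.499 with YAPi_TAZi, IFITM2 had -2.54 with TAZi and -1.66 with TEADi, and OAS3 had -1.96 with YAPi_TAZi. Of the panel, BST2 fell with YAPi, TAZi and TEADi, IRF9 fell with YAPi, TAZi and YAPi_TAZi, IRF1 rose with TAZi and YAPi_TAZi, and IFI6, IRF7 and OAS1 were not called, OAS1 being listed at 0 in 6 of the 8 knockdown libraries.

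Each knockdown was also compared with the other knockdowns of set 1, which had a like depth and share of RNAs without a poly(A) tail. The replicate number, with which the effective length differed, was a block. DESeq2 called 0 of the 45 genes in every case. Over all genes tested it called 0.597% for YAPi, 0.377% for TAZi, 1.11% for YAPi_TAZi and 1.84% for TEADi. The numbers at an unadjusted p under 0.05 were 2 for YAPi, 3 for TAZi, 7 for YAPi_TAZi and 1 for TEADi. DESeq2 gave an adjusted p to 5, 28, 30 and 34 of the 45 genes, so that this fit could call few genes for YAPi. Over the genes called against Ctrli, the median absolute log2 fold change was 1.59 for YAPi, 1.30 for TAZi, 1.27 for YAPi_TAZi and 1.28 for TEADi, and against the other knockdowns 0.41, 0.18, 0.42 and 0.17. Since these genes were chosen for being called against Ctrli, a smaller value elsewhere is partly fixed by that choice, and an effect that the knockdowns share would also be smaller against each other. With the controls of both sets, 5, 2, 4 and 3 of the 45 genes were called, while over all genes tested 7.81%, 7.17%, 9.58% and 9.22% were called. With Ctrli replicate 1 or Ctrli replicate 2 of set 1 left out, 4 to 7 genes were called.

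**Figure D4:**
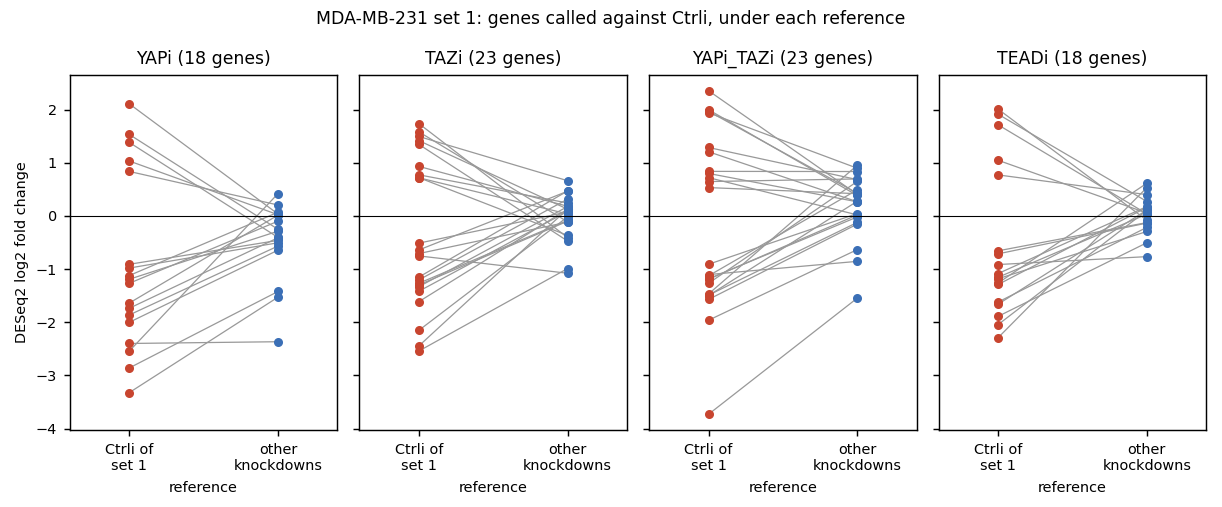
DESeq2 log2 fold change of the interferon-stimulated genes called against the set 1 Ctrli libraries (red), and of the same genes when the other knockdowns of set 1 were the reference (blue), where grey lines join the values of a gene. The genes were chosen by their red value, which partly fixes that the blue values are smaller, and the median absolute value for YAPi is 1.59 against Ctrli and 0.41 against the other knockdowns, where the lowest blue point for YAPi is UBE2L6 at -2.37.

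UBE2L6 had a similar fold change with YAPi under each reference. In set 1 it was at 41.8 and 42.7 TPM in Ctrli, 1.58 and 4.89 TPM in YAPi, 7.92 and 9.44 TPM in YAPi_TAZi, 15.5 and 29.5 TPM in TAZi and 15.0 and 21.6 TPM in TEADi. Among the knockdowns, the YAPi and YAPi_TAZi libraries were the lowest 4. The log2 fold change with YAPi was -2.40 ± 0.43 against Ctrli (adjusted p = 2.5e-07, DESeq2), -2.41 ± 0.51 with the controls of both sets (adjusted p = 0.00011) and -2.37 ± 0.56 against the other knockdowns, where DESeq2 gave no adjusted p (unadjusted p = 2.3e-05), and the call against Ctrli was lost without Ctrli replicate 2. With YAPi_TAZi it was -1.10 ± 0.24 against Ctrli (adjusted p = 2.3e-05), -1.09 with the controls of both sets (adjusted p = 0.081) and -0.86 against the other knockdowns (adjusted p = 0.71). In the main fits UBE2L6 was lower with YAPi in ER-Src cells with ETH, in ER-Src cells with TAM and in MDA-MB-231 cells. The ER-Src calls did not hold in every fit that left out a library, and the TAM call was lost in each. The MDA-MB-231 value against Ctrli carries the difference in library type. UBE2L6 was singled out after its values were seen. With TAZi the gene was not called in any setting named here, with log2 fold changes of 0.50 in ETH, 0.65 in TAM and 0.45 in set 1 against Ctrli.

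In MDA-MB-231 set 2, controls and knockdowns are of one library type, but few of the 45 genes were given an adjusted p. The SD over genes of the log2 ratio between its 2 Ctrli libraries was 0.90, the highest of the 18 groups. A small count of calls here does not show an absence of effects. JUNBi lowered ISG15, from 324 and 426 TPM to 229 and 213 TPM (log2 fold change -1.06 ± 0.24, adjusted p = 0.00062, DESeq2), and raised none, while over all 7187 genes tested 0.292% were higher and 3.7% were lower. DESeq2 gave an adjusted p to 16 of the 45 genes. The call was lost with edgeR (0 called, 8 at an unadjusted p under 0.05) and without JUNBi replicate 1, JUNBi replicate 2 or Ctrli replicate 4. BST2 was at 277 and 270 TPM against 358 and 340 TPM (-0.48 ± 0.19), IFITM3 at 367 and 395 TPM against 432 and 348 TPM (-0.37 ± 0.18) and IRF7 at 36.3 and 28.7 TPM against 35.8 and 55.8 TPM (-0.65 ± 0.27), and none was called.

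STAT3i in set 2 called 0 of the 45 genes by DESeq2, with 2 at an unadjusted p under 0.05 and 8 given an adjusted p, and 0 by edgeR, with 3, while over all 4639 genes tested 0.0% were higher and 0.237% were lower. ISG15 was at 283 and 234 TPM (-0.71 ± 0.23, adjusted p = 0.13, DESeq2), below both controls. IFITM3 was at 369 and 363 TPM, between the 2 controls (-0.28 ± 0.17), and IFIT1 at 2.74 and 2.28 TPM against 2.41 and 3.32 TPM. STAT3 itself had a log2 fold change of -2.41 in these libraries. Whether the STAT3i effect differs between the ER-Src and MDA-MB-231 cells was not tested.

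Across the 9 ER-Src comparisons, which share control libraries, 23 of the 45 genes were called in none. Of the 43 genes with an adjusted p in at least 1 of them, 21 were called in none (48.8%), beside 14970 of the 18637 such genes in the whole table (80.3%). Some lay near the floor: XAF1 was at 0 in 13 of the 20 libraries, and the medians of MX2, EPSTI1 and RSAD2 were 0.04, 0.105 and 0.15 TPM. The genes called in none were BST2, CMPK2, DDX60, EIF2AK2, EPSTI1, HERC5, IFI35, IFI44, IFIH1, IFIT5, IRF7, ISG15, ISG20, MX1, MX2, OAS2, OAS3, OASL, PARP14, RIGI, RSAD2, USP18 and XAF1. They include all 4 RNA sensors and helicases, namely RIGI, IFIH1, DDX60 and the kinase EIF2AK2, and USP18, which removes ISG15 from its targets. Since 80.3% of such genes in the whole table were also called in none, this is not read as a trait of these genes. The median log2 fold change of the RNA sensors lay between -0.17, for TAZi in ETH, and 0.67, for STAT3i in TAM, over the 9 comparisons.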

How the data were processed

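RNA-seq was measured in 36 libraries. Per the labels, submitters' notes and methods, the authors aligned reads with STAR and quantified genes with RSEM on hg38 with a GENCODE annotation (versions of the tools are not given in the sources used here). The deposited tables hold RSEM expected counts per gene, not normalized, and TPM, which the authors' RSEM run scaled per gene length and library total. Length columns were used only for an alternative with effective length offsets and to compare effective length between libraries.

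Rounding made these estimated counts whole. Each of 15 comparisons and 4 interactions was tested by the DESeq2 1.42.0 Wald test (R 4.3.3) in a separate fit on its own groups over all genes, with Benjamini-Hochberg adjustment and a threshold of 0.01, as in the study's design. Errors are SE, with 2 libraries per group. The list members and pathway lists were chosen with earlier results of these data known. Genes named are a fixed panel of 10 genes, up to 4 called genes with the largest change in each direction, all called genes where there are 6 or fewer, and any named for a comparison drawn in the text, chosen after their values were seen. Alternatives were edgeR 4.0.16 quasi-likelihood (with limma 3.58.1), effective length offsets, size factors by TMM, removal of genes averaging under 10 counts, the replicate number as a block, other references for set 1, and leaving out each library. Simulated counts with known changes were fitted only for the groups of STAT3i in TAM and of JUNBi in set 2, with the changes placed in genes of higher counts. This does not cover set 1, the interactions or genes of low counts. An adjusted p that DESeq2 gave as NA stayed NA. Promoter windows and stretches are RefSeq, GRCh38.p14. Results for 1 gene of the pathway list are not reported here.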

Additional observations from a re-analysis of the deposited data

Results flagged for a closer look

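The effect of STAT3i differed between tamoxifen-treated and ethanol-treated ER-Src cells for 3 interferon-stimulated genes, by the DESeq2 interaction test with Benjamini-Hochberg adjustment. The interaction was 2.45 on the log2 scale for IFIT1 (adjusted p = 0.0031), -1.07 for IFITM2 (adjusted p = 0.0014) and -0.94 for IFITM3 (adjusted p = 0.00021). IFIT1 was at 8.78 and 5.13 TPM in STAT3i TAM and at 2.28 and 1.11 TPM in STAT3i ETH, against 0.72 and 0.57 TPM and 1.20 and 0.90 TPM in the matching controls. By edgeR, 0 of the 45 genes passed the same test, with 18 at an unadjusted p under 0.05. No group had enough libraries for a test of single outlying samples.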

How the results depend on the processing

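Each count is the number of the 45 genes called, out of the count given in the report. With edgeR the count was 0 for STAT3i in ETH, JUNBi in ETH, JUNBi in set 2 and the STAT3i interaction, and 2 for TAZi in ETH. A filter at a mean count of 10 gave 5 for TAZi in TAM and 2 for TAZi in ETH. Effective length offsets gave 0 for STAT3i in ETH and 12 for YAPi_TAZi in set 1, and for TAZi in ETH 1 gene that was not the one called otherwise. With the controls of both sets the counts were 5 for YAPi, 2 for TAZi, 4 for YAPi_TAZi and 3 for TEADi, and with the other set 1 knockdowns as reference they were 0 for all 4.

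The labels do not say that replicate numbers mark a shared batch, and with 2 pairs the correlation of same-numbered deviations lay between -0.061 and 0.337, so the numbers were not taken as pairs. As a block in the fit, the replicate number gave 5 for TAM in Ctrli, 1 for TAZi in TAM, 3 for JUNBi in TAM, and 9 each for TAZi and TEADi in set 1. In set 2 no such block could be fitted, since its controls carry other replicate numbers than its knockdowns.

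Leaving out each library in turn gave 4 for TAM in Ctrli each time. It gave 4 to 8 for YAPi, 0 to 1 for TAZi, 6 to 9 for STAT3i and 0 to 4 for JUNBi in TAM. It gave 2 to 4 for YAPi, 0 to 1 for TAZi, 0 to 2 for STAT3i and 0 to 7 for JUNBi in ETH. In set 1 it gave 6 to 18 for YAPi, 4 to 19 for TAZi, 6 to 18 for YAPi_TAZi and 5 to 20 for TEADi. In set 2 it gave 0 to 1 for JUNBi and for STAT3i, and in the interactions 0 to 3 for STAT3i and 0 to 1 for JUNBi. Where a fit left 1 library in a group, that library was assumed to vary like the others.

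Among the genes the report names by rule, the direction turned only in set 1 (log2 fold changes). With the controls of both sets, IFI27 was at -0.61 with YAPi, -0.16 with YAPi_TAZi and -0.24 with TEADi. Against the other knockdowns, YAPi gave IFI27 -0.25, IFITM1 0.42, IFITM3 0.069 and SAMD9 -0.40. TAZi gave IFIT1 0.47, IFITM1 0.13, IRF9 0.18, OASL 0.13, SAMD9 -0.11 and SAMD9L -0.41. YAPi_TAZi gave IFIT1 0.49, ISG15 0.019 and OASL 0.28. TEADi gave IFITM1 0.53, IFITM2 0.11, IFITM3 0.033, ISG15 0.18, ISG20 0.10 and SAMD9L -0.082. Of all genes called against Ctrli, the sign against the other knockdowns was the same for 13 of 18 with YAPi, 11 of 23 with TAZi, 17 of 23 with YAPi_TAZi and 10 of 18 with TEADi. The cause was not tested.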
